A study of Homo sapiens with 8 samples.

Results

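Transcript levels were compared between BJ cells that overexpressed the long noncoding RNA PURPL and BJ cells that carried the control plasmid. BJ is an established line of human skin fibroblasts, and every sample is labelled with it, although the series' design text names another cell line and other knockdowns that no sample label holds. The groups were OE-PURPL (cells labelled as overexpressing PURPL) and PCDNA (cells labelled with the name of a mammalian expression plasmid, the empty-plasmid control), with 2 libraries each, which makes 4 of the 8 libraries of the series. The other 4 libraries, also from BJ cells, hold a knockdown of PURPL with an antisense oligonucleotide (ASO-PURPL) and its control oligonucleotide (ASO-NC), and they are used below only for reference. All cells grew in the same serum-containing medium, and RNA was taken for mRNA sequencing. The plasmid's PURPL isoform, the time after its delivery and the share of cells that took it up are not given in the sources used here. Levels are FPKM, a fragment count divided by the length of the transcript and by the number of fragments sequenced. Pair 1 and pair 2 are the treated and the control library of the same replicate number and deposited table, and each ratio was taken inside a pair as the log2 of FPKM plus 1 in OE-PURPL minus that in PCDNA. The added 1 makes these ratios smaller than the true ratios for genes with low levels. Genes are described where they are annotated as protein coding, carry a gene symbol rather than a clone name, reach a mean of 5 FPKM over the 4 libraries (8974 genes) and have the same direction in both pairs.

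PURPL is known as a target of the tumour suppressor p53 and as an RNA that lowers p53 levels in other cell types. p53 is the transcription factor that halts the cell cycle after DNA damage, and in dividing fibroblasts it is part of the program of senescence. Long noncoding RNAs of this kind can act by binding proteins, or at the locus they are transcribed from, and a plasmid supplies the RNA away from that locus.

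PURPL lies on chromosome 5 (27472292 to 27496401, plus strand, GRCh38, GENCODE 29), where it is annotated with 6 transcripts of 458 to 1610 bases. The first 300 bases of its longest transcript, PURPL-204, are shown because PURPL is the RNA that was raised. They are followed by the RefSeq promoter windows of PURPL and of 4 genes that recur in the results (250 bases before to 50 bases after the gene start, GRCh38.p14). The capitals mark, in PURPL, a p53 response element, which is a pair of half-sites with a spacer of at most 13 bases. In the other 4 windows they mark the TATA box (TATAAA), the CCAAT box (CCAAT) and the cyclic AMP response element (TGACGTCA). The AP-1 site (TGANTCA) and the CArG box, the site of serum response factor, were searched for as well, and both strands were read.
PURPL-204, chromosome 5, plus strand: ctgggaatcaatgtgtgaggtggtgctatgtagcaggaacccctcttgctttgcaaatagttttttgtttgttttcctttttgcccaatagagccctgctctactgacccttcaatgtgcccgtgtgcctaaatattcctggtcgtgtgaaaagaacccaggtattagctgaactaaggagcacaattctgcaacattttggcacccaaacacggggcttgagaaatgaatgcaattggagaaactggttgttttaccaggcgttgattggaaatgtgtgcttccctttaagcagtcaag
PURPL, chr5:27472042-27472341, plus strand: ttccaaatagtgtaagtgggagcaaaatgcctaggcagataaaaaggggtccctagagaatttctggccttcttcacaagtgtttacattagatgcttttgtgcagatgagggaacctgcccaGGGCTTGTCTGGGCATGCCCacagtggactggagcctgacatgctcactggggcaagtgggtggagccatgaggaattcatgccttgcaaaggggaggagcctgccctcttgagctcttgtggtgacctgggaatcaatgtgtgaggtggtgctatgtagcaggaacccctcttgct
JUNB, chr19:12791236-12791535, plus strand: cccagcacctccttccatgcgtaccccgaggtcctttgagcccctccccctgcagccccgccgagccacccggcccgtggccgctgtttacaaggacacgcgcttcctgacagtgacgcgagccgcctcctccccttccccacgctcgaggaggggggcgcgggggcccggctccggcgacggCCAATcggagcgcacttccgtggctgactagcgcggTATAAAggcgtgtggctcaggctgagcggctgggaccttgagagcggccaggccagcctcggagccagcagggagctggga
FOS, chr14:75278578-75278877, plus strand: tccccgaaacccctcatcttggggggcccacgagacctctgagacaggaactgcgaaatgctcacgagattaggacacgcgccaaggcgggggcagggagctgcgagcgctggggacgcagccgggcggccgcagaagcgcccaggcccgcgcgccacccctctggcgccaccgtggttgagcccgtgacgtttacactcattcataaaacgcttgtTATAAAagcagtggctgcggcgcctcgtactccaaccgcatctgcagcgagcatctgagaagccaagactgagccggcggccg
PPP1R15A, chr19:48872171-48872470, plus strand: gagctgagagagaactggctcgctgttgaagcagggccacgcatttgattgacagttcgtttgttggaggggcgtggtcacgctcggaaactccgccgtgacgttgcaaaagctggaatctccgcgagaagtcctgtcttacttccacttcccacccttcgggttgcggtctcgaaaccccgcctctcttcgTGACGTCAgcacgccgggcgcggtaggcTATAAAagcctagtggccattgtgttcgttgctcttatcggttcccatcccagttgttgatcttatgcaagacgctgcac
TMEM135, chr11:87037684-87037983, plus strand: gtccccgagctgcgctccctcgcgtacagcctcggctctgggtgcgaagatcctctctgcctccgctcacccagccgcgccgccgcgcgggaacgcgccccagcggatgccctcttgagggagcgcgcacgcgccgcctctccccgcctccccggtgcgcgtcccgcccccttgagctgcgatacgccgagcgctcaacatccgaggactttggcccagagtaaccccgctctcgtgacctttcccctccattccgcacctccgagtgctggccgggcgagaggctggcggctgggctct

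The p53 element of the PURPL window began 127 bases before the gene start and matched on both strands. Such an element was found in 8 of 27305 RefSeq promoter windows (0.0293%), PURPL among them, and in 0 of the 22 p53 target genes with a window. The search allowed no mismatch and read only these windows, so it misses other forms of the element. A single half-site was held by 3 of these 22 windows (13.6%) and by 5.00% of the windows of all described genes. JUNB held a TATA box that began 31 bases and a CCAAT box that began 67 bases before the gene start. FOS held a TATA box at 33 bases. PPP1R15A held a TATA box at 30 bases and a cyclic AMP response element at 58 bases. The TMEM135 window held none of the motifs searched, which says only that these letters are not in this window.

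PURPL itself stood at 5.42 and 5.73 FPKM with the control plasmid and reached 153 and 238 FPKM with overexpression. Both treated libraries lay far above both controls, by 28.3-fold in pair 1 and 41.6-fold in pair 2. PURPL rose by 4.87 on the log2 scale (SE 0.16, n = 2 pairs, limma adjusted p = 0.00511). The call needed all 4 pairs, since the adjusted p was 0.0696 without pair 1, 0.093 without pair 2 and 0.365 without either knockdown pair, which lend their spread to the fit. In the libraries of the knockdown, PURPL stood at 16.2 and 9.74 FPKM with the control oligonucleotide, so the raised level was also above every library of the series. The authors' deposited table gave a log2 fold change of 4.587 for pair 1. RNA from the plasmid and RNA from chromosome 5 cannot be told apart in these values, and neither can more RNA per cell and more cells with RNA.

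The libraries matched their label as fibroblasts. All 10 fibroblast markers reached 1 FPKM, and their summed level was 5981 and 5926 FPKM in PCDNA and 6291 and 6302 FPKM in OE-PURPL. Of 8 keratinocyte markers 3 reached 1 FPKM, KRT5 and KRT1 were listed at 0 or at the lowest value of the table, and the sum was 9.06 and 9.62 FPKM in PCDNA and 12.8 and 13.2 FPKM in OE-PURPL. Immune markers summed to 287 to 356 FPKM, nearly all of it CD68, a lysosomal protein, while PTPRC (CD45) was at most at 0.187 FPKM and CD3E at 0. Endothelial markers summed to at most 1.01 FPKM and muscle markers to at most 0.785 FPKM. Melanocyte markers summed to 12.3 and 11.4 FPKM in PCDNA and 11.3 and 8.66 FPKM in OE-PURPL, with TYR and DCT at 0.

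Of 14977 genes tested, 4 rose past the limma threshold (0.0267%, adjusted p under 0.05) and 0 fell (0%). At an unadjusted p under 0.05 stood 2061 genes, where 749 would be expected by chance. That number was 852 without pair 1, 714 without pair 2, and 405 with the pairing dropped and the libraries quantile normalized. Besides PURPL the calls were CTB-79E8.3, RP11-193F5.1 and CH17-13I23.3, which carry clone names, have no coordinates in GENCODE 29 and were at most at 0.01 FPKM in both PCDNA libraries. CTB-79E8.3 stood at 28.4 and 24.7 FPKM in OE-PURPL (limma adjusted p = 0.0064). RP11-193F5.1 stood at 20.04 and 18.7 FPKM (limma adjusted p = 0.0064), and CH17-13I23.3 at 24.0 and 12.5 FPKM (limma adjusted p = 0.0436). In all, 5 genes were at most at 0.01 FPKM in both PCDNA libraries and at 10 FPKM or more in both OE-PURPL libraries, and 0 genes showed the opposite. In the knockdown experiment CTB-79E8.3 stood at 16.3 and 22.9 FPKM in ASO-NC and at 40.04 and 91.8 FPKM in ASO-PURPL. CH17-13I23.3 stood at 7.98 and 11.9 FPKM in ASO-NC and was listed at 0.01 and 0 FPKM in ASO-PURPL, and RP11-193F5.1 was at most at 0.01 FPKM in all 4 libraries. RP11-193F5.1 thus entered the test only through the OE-PURPL libraries where it was high. Its knockdown ratios of 0 and 0 lent no spread to its fit, so its adjusted p rests partly on libraries without this RNA. With a pseudocount of 0.1 FPKM its limma adjusted p was 0.179. With either overexpression pair left out, 0 of these 4 genes passed, and 1 other gene (without pair 1) or 0 genes (without pair 2) did.

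**Figure D1:**
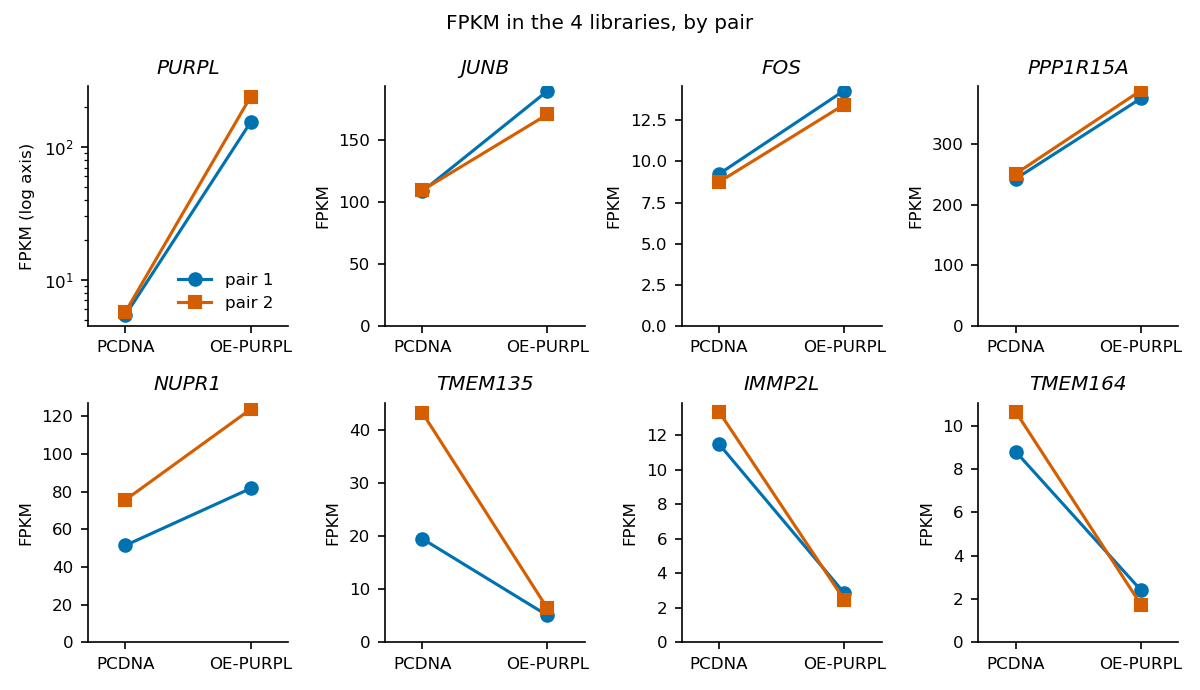
FPKM of 8 genes in the 4 libraries, with a line joining the PCDNA and the OE-PURPL library of each pair (blue circles for pair 1, orange squares for pair 2). The PURPL panel has a log axis and the others start at 0, and in each panel both pairs point the same way.

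Among the 8974 named protein-coding genes, 3402 were higher in both pairs (37.9%) and 2804 lower (31.2%), and 2768 had opposite directions (30.8%). Over all tested genes 4884 were higher in both pairs (32.6%) and 4652 lower (31.1%). Most ratios were small. A ratio of 0.25 or more in both pairs was reached by 715 genes upward and 562 downward, and one of 0.5 or more by 46 upward (0.513%) and 42 downward (0.468%), while over all tested genes 1.12% did so upward and 0.821% downward. At 0.75 in both pairs stood 2 genes upward and 4 downward, and at 1 stood 0 upward and 3 downward. The middle 90% of the ratios lay between -0.43 and 0.43 in pair 1 and between -0.42 and 0.48 in pair 2. Across the 8974 genes the ratios of the pairs correlated with a Pearson r of 0.44 and a Spearman rho of 0.50, a description over genes that share their libraries and are not independent.

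**Figure D2:**
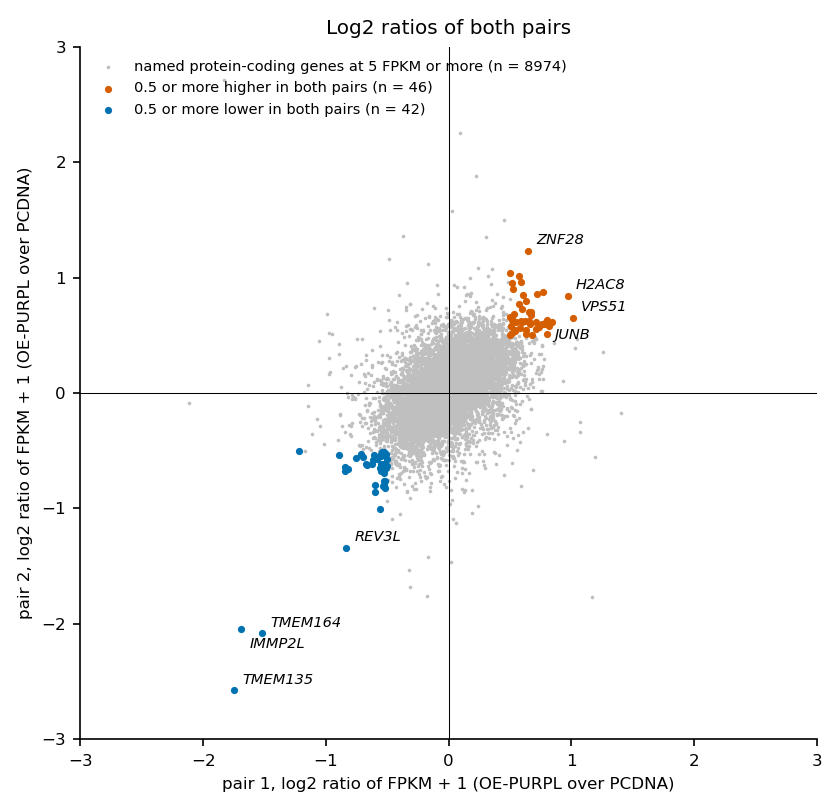
Log2 ratio of FPKM plus 1 (OE-PURPL over PCDNA) in pair 1 against pair 2 for 8974 named protein-coding genes, with the 46 genes at 0.5 or more above PCDNA in both pairs in orange and the 42 at 0.5 or more below in blue. The cloud is tilted upward, 3 genes stand apart at the lower left, and 2 genes lie outside the axes.

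Genes were ordered by the smaller of their 2 ratios, and the 20 highest ran from H2AC8 to PROSER2, with limma adjusted p-values of 0.324 to 0.444, so none passed. H2AC8, a gene for histone H2A (chromosome 6, 26216975 to 26217483), stood at 7.53 and 10.1 FPKM in PCDNA and at 15.7 and 18.9 FPKM in OE-PURPL, log2 ratios of 0.97 and 0.84. Its sequence is nearly shared by other histone genes, so the split of reads among them is uncertain. JUNB, a subunit of the AP-1 transcription factor (chromosome 19, 12791496 to 12793315), stood at 108 and 109 FPKM in PCDNA and at 189 and 170.2 FPKM in OE-PURPL, ratios of 0.80 and 0.64. For both genes the treated libraries lay above both controls. Here and below, such separation was not counted over all genes, and the choice of genes by the size of both ratios favours it. It also sets a treated library against the control of the other pair, which the pairing does not.

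PPP1R15A, the subunit that directs a phosphatase to the translation factor eIF2 and so ends the integrated stress response (chromosome 19, 48872392 to 48876057), stood at 243 and 251 FPKM in PCDNA and at 375 and 388 FPKM in OE-PURPL. Its ratios, 0.63 and 0.63, were alike in the pairs. NUPR1, a small nuclear protein induced by stress (chromosome 16, 28532708 to 28539174), stood at 51.6 and 75.7 FPKM in PCDNA and at 81.8 and 124 FPKM in OE-PURPL, ratios of 0.66 and 0.70. Here the control of pair 2 came close to the treated library of pair 1, and the groups still did not overlap. PIAS4, a SUMO ligase, had ratios of 0.63 and 0.79 and NEURL3, a ubiquitin ligase, of 0.72 and 0.86.

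ZNF28, a zinc finger gene with many related copies, had 6.98 and 9.05 FPKM in PCDNA and 11.5 and 22.7 FPKM in OE-PURPL, so that its ratio in pair 2 (1.24) was well above that in pair 1 (0.65). ZMAT5, a protein of the minor spliceosome, had ratios of 0.67 and 0.70, and NLE1, a factor of ribosome assembly, 0.67 and 0.68. VPS51, a subunit shared by the GARP and EARP tethering complexes of the endosome, had ratios of 1.01 and 0.65. SLC39A4, which imports zinc, had 0.79 and 0.61. WWOX, a tumour suppressor with an oxidoreductase domain, had 0.72 and 0.61, DNPH1, a nucleotide hydrolase, 0.84 and 0.61, and SEM1, a subunit of the proteasome lid, 0.76 and 0.60. TMEM160 (0.77 and 0.88), SLC2A4RG (0.66 and 0.60), the neuropeptide gene GAL (0.60 and 0.61) and PROSER2 (0.78 and 0.60) were also among the 20, as was KRT17.

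KRT17, a keratin of stressed and wounded epithelium, stood at 36.6 and 26.6 FPKM in PCDNA and at 56.3 and 48.6 FPKM in OE-PURPL. Its ratios of 0.61 and 0.85 went with a higher KRT14, at 0.598 and 0.672 FPKM in PCDNA and 1.73 and 2.20 FPKM in OE-PURPL. Among the other keratinocyte markers, KRT10 stood at 7.44 and 7.63 FPKM in PCDNA and 9.77 and 9.03 FPKM in OE-PURPL. EPCAM stood at 0.963 and 1.32 FPKM against 1.20 and 2.02 FPKM. KRT5, KRT1, TP63, DSG3 and CDH1 were at most at 0.0151 FPKM. The part of keratinocytes in the ratio of KRT17 was not tested.

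The genes lowest in OE-PURPL were led by 3 membrane-protein genes, well apart from the rest. TMEM135, a membrane protein of peroxisomes and mitochondria (chromosome 11, 87037844 to 87323758), stood at 19.6 and 43.4 FPKM in PCDNA and at 5.11 and 6.44 FPKM in OE-PURPL. IMMP2L, a peptidase of the inner mitochondrial membrane (chromosome 7, 110663051 to 111562517), stood at 11.5 and 13.4 FPKM in PCDNA and at 2.87 and 2.48 FPKM in OE-PURPL. TMEM164 (chromosome X, 110002631 to 110182734) stood at 8.78 and 10.6 FPKM in PCDNA and at 2.41 and 1.74 FPKM in OE-PURPL. In all 3 the treated libraries lay far below both controls, with log2 ratios of -1.75 and -2.58 for TMEM135, -1.69 and -2.05 for IMMP2L and -1.52 and -2.08 for TMEM164. None passed limma (adjusted p = 0.206, 0.206 and 0.324), and the 20 lowest genes ranged from an adjusted p of 0.206 to 0.408 in limma.

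In the knockdown libraries, which have controls of their own, IMMP2L was again the lower one in the treated libraries, at 17.5 and 13.7 FPKM in ASO-NC and 3.91 and 1.74 FPKM in ASO-PURPL. PURPL stood at 6.31 and 4.24 FPKM in ASO-PURPL, below both of its controls, so IMMP2L was lower in the treated libraries of both experiments. TMEM135 stood at 25.9 and 34.7 FPKM in ASO-NC and 25.5 and 31.4 FPKM in ASO-PURPL, close to its controls. TMEM164 stood at 1.97 and 3.46 FPKM in ASO-NC and 3.92 and 2.38 FPKM in ASO-PURPL, with overlapping groups.

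REV3L, the catalytic subunit of the translesion DNA polymerase zeta, followed these 3, at 7.75 and 12.4 FPKM in PCDNA and 3.90 and 4.31 FPKM in OE-PURPL (ratios of -0.84 and -1.34). Several large regulators came next with smaller ratios. APC, the scaffold of beta-catenin destruction, had -0.84 and -0.68, KMT2C, a histone H3 lysine methylase, -0.82 and -0.66, and PRKDC, the DNA-dependent protein kinase, -0.66 and -0.63. Among signalling genes, TGFBR1, the type I receptor of TGF-beta, stood at 11.5 and 10.3 FPKM in PCDNA and 6.42 and 6.65 FPKM in OE-PURPL. FRS2, an adaptor of fibroblast growth factor receptors, had ratios of -0.56 and -0.65, ERBIN, a scaffold at ERBB receptors, -0.60 and -0.80, and HIPK3, a kinase, -0.58 and -0.57.

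Trafficking genes among the 20 lowest were GOLGA3, a golgin (-0.84 and -0.64), and VPS53, which had 17.4 and 17.7 FPKM in PCDNA and 10.5 and 11.2 FPKM in OE-PURPL. VPS53 and VPS51 encode subunits of the same GARP complex, and they stood at opposite ends of the list. SLC25A12, the mitochondrial aspartate-glutamate carrier, had -0.62 and -0.62. ETV6, a repressor of the ETS family, had -0.55 and -0.68, and NR2C1, an orphan nuclear receptor, -0.70 and -0.55. FBXL17, an F-box protein, stood at 11.6 and 14.04 FPKM in PCDNA and 7.59 and 6.51 FPKM in OE-PURPL. MPHOSPH9, a centriolar protein, had ratios of -0.60 and -0.86, UACA -0.62 and -0.58 and ARHGEF10 -0.55 and -0.62.

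**Figure D3:**
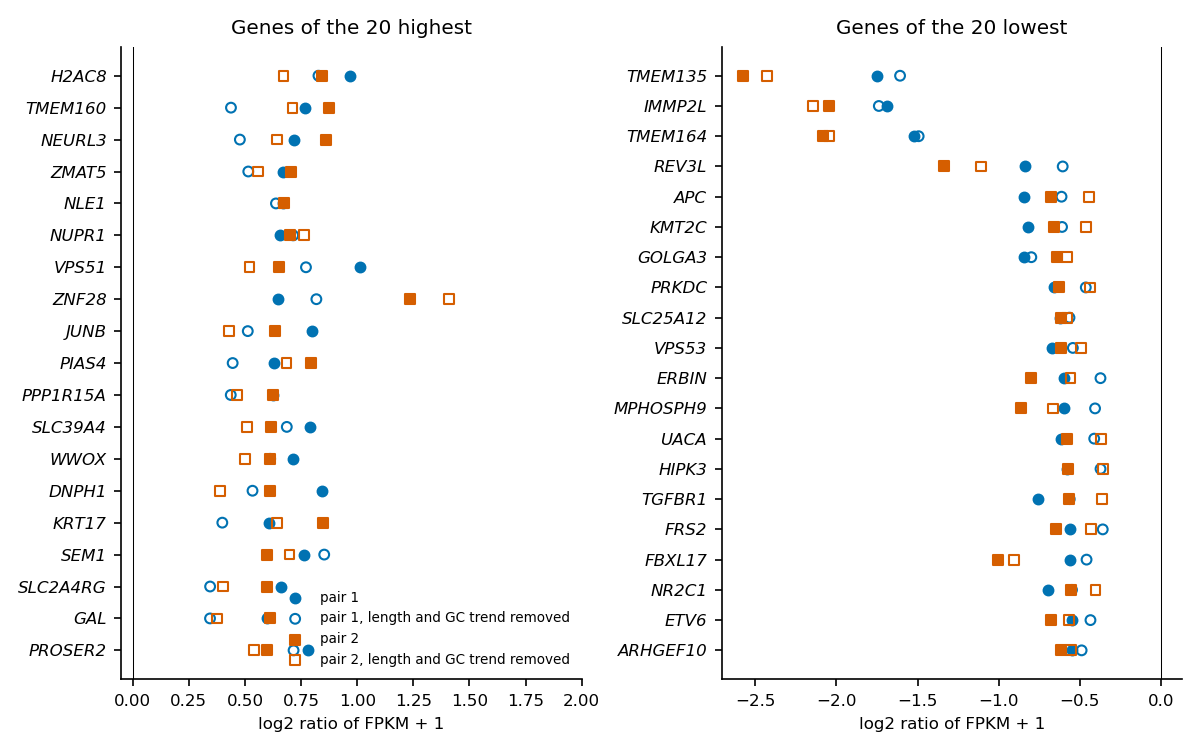
Log2 ratios of 19 of the 20 highest genes (left) and of the 20 lowest (right) in pair 1 (blue circles) and pair 2 (orange squares), filled as measured and open after the trend on transcript length and GC content was removed. All 19 genes on the left stay above 0 and all 20 on the right below 0 in both forms, and most open symbols lie closer to 0 than the filled ones.

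The highest and the lowest genes differed in structure. The 20 highest had a median transcript length of 2423 bases, a median transcript GC content of 57.5% and a median genomic span of 7.28 kb. For the 20 lowest these values were 6558 bases, 42.1% and 168 kb, and for all 8974 genes 3597.5 bases, 48.5% and 31.0 kb. Over the 8962 genes with an annotated transcript the ratio correlated with transcript length (Spearman rho -0.42 in pair 1 and -0.46 in pair 2) and with GC content (0.54 and 0.44), as a description over genes. Among the shortest 1798 transcripts 65.3% of genes were higher in both pairs, and among the longest 1793 it was 12.3%. Among the 1793 genes with the highest GC content 72.3% were higher in both pairs, and among the 1793 with the lowest 10.2%. In the knockdown pairs the trend on length differed in sign (rho of -0.21 and 0.29). Their trend on GC content was negative in both (rho of -0.06 and -0.20), opposite to that of overexpression.

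**Figure D4:**
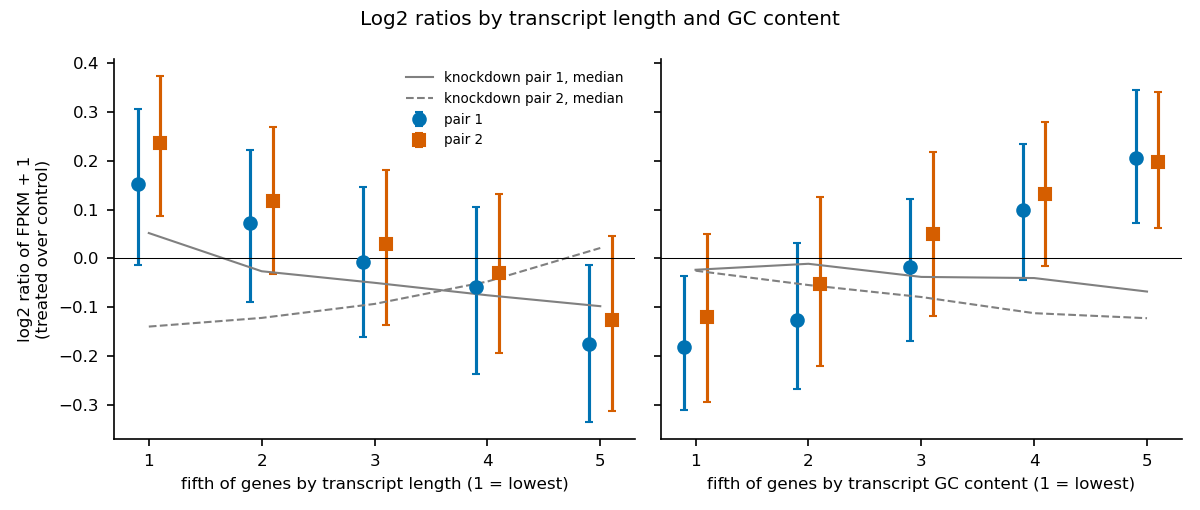
Median log2 ratio (symbols) with the quartiles of the genes (bars) in 5 equal groups of genes by transcript length (left) and transcript GC content (right), for overexpression pair 1 (blue) and pair 2 (orange), with the medians of the knockdown pairs as grey lines. The overexpression medians go from 0.15 and 0.24 in the shortest transcripts to -0.18 and -0.13 in the longest, and from -0.18 and -0.12 at the lowest GC content to 0.21 and 0.20 at the highest.

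With this trend removed from each pair, all 20 highest genes were still higher and all 20 lowest still lower in both pairs, and 9 and 6 of them kept a ratio of 0.5 or more. PURPL was called with an adjusted p of 0.000826 in limma, and 1050 of 13601 genes with an annotated transcript had an unadjusted p under 0.05, where 680 would be expected by chance. When the genes were ordered anew, 9 of the 20 highest and 13 of the 20 lowest were in both orders. Downward, IMMP2L (-1.74 and -2.14), TMEM135 (-1.61 and -2.43) and TMEM164 (-1.49 and -2.05) came first, followed by NPIPB3 (-0.72 and -0.63), which was not among the 20 lowest as measured, and REV3L (-0.61 and -1.11). Upward, the order was ZNF28 (0.82 and 1.41), NUPR1 (0.71 and 0.76), SEM1 (0.85 and 0.70) and H2AC8 (0.83 and 0.67). Medians without the trend are given below for the lists described by their medians, and the plot of list medians shows them for the others. The part of transcript length and GC content in each result was not tested otherwise.

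Subunits of AP-1 and their partners, the dimeric factors that cells use in the first response to serum and stress, were higher as a set of genes. Of 12 members at 5 FPKM, 11 were higher and 0 lower in both pairs, against 37.9% and 31.2% of all described genes, and 0 passed limma. The median ratio was 0.31 in pair 1 and 0.37 in pair 2, and 0.25 and 0.30 without the trend. FOS stood at 9.24 and 8.76 FPKM in PCDNA and at 14.3 and 13.5 FPKM in OE-PURPL. MAFF, a small MAF protein, stood at 86.4 and 79.2 FPKM in PCDNA and at 117 FPKM in both OE-PURPL libraries, and MAFK at 38.0 and 38.6 FPKM against 52.9 and 47.8 FPKM. The treated libraries lay above both controls in each of these genes, and FOSL2 was the member with opposite directions (-0.00463 and 0.12).

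Other immediate early regulators, which are transcribed within minutes of a stimulus, were mostly higher too, with 14 of 18 members higher and 3 lower in both pairs and medians of 0.19 and 0.15 (0.16 and 0.09 without the trend). GADD45B, a stress sensor, stood at 71.0 and 75.6 FPKM in PCDNA and 111 FPKM in both OE-PURPL libraries. IER2 stood at 155 and 146 FPKM against 255 and 202 FPKM, IER3 at 252 and 223 FPKM against 362 and 346 FPKM, and IER5 at 54.0 and 50.6 FPKM against 73.9 and 75.5 FPKM. None of the 4 had overlapping groups, which their choice by size favours, and none passed limma (adjusted p = 0.324 for each). Dual-specificity phosphatases, which switch off the MAP kinases upstream of these genes, were mixed, 4 of 14 higher and 3 lower. The largest ratios of equal direction were those of DUSP23 (0.35 and 0.47) and DUSP16 (-0.30 and -0.38). DUSP6, a common readout of ERK activity, stood at 44.2 and 43.9 FPKM in PCDNA and 41.5 and 41.3 FPKM in OE-PURPL. ERK activity itself was not tested.

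Genes of the ATF4 branch of the stress response had 18 of 24 members higher and 4 lower in both pairs, with medians of 0.17 and 0.24 (0.04 and 0.14 without the trend). DDIT3 (CHOP), the factor that couples this response to cell death, stood at 55.6 and 50.6 FPKM in PCDNA and 69.4 and 77.2 FPKM in OE-PURPL. SLC38A2, an amino acid transporter, went the other way, at 251 and 275 FPKM against 192 and 213 FPKM. Metallothioneins and antioxidant enzymes had 22 of 35 members higher and 4 lower, among them HMOX1, which breaks down heme, with 247 and 209 FPKM in PCDNA and 336 and 341 FPKM in OE-PURPL. The medians of that list were 0.10 and 0.23, and 0.04 and 0.11 without the trend. Heat shock proteins and chaperonin subunits were divided, 25 of 70 higher and 26 lower in both pairs.

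Lysosomal genes, with medians of 0.05 and 0.25, had 20 of 32 members higher and 4 lower, but the median of pair 1 changed sign without the trend (-0.01, and 0.17 in pair 2). ATP6V0B, a subunit of the proton pump, stood at 158 and 159 FPKM in PCDNA and 197 and 198 FPKM in OE-PURPL. Sterol and fatty acid synthesis had opposite medians in the pairs (-0.03 and 0.09, and -0.01 and 0.12 without the trend), although MVD, which makes isopentenyl diphosphate, had ratios of 0.68 and 0.51.

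Secreted cytokines and chemokines were higher in 15 of 22 members and lower in 1, with a far larger median in pair 2 (0.44) than in pair 1 (0.13). CSF3, the granulocyte growth factor, showed this best, at 10.9 FPKM in PCDNA and 15.2 FPKM in OE-PURPL in pair 1, and at 7.56 and 23.2 FPKM in pair 2. IL11, a profibrotic cytokine, stood at 45.7 and 31.2 FPKM in PCDNA and 65.8 and 61.4 FPKM in OE-PURPL, so its groups did not overlap. TNFSF13B (BAFF) had ratios of 0.42 in both pairs and TNFSF9 0.38 and 0.78. Without the trend the list medians were 0.09 and 0.40, and 9 members stayed higher in both pairs.

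Interferon-stimulated genes were higher in 23 of 40 members and lower in 12, with medians of 0.06 and 0.17 (0.03 and 0.13 without the trend), and the median over both pairs was below 0 (-0.06) when the pairing was dropped and the libraries were quantile normalized. Growth factors and IGF-binding proteins were mixed, 7 of 23 higher and 6 lower. IGFBP6 stood at 805 and 841 FPKM in PCDNA and 1134 and 1205 FPKM in OE-PURPL, and NRG1, a ligand of ERBB receptors, at 27.5 and 36.2 FPKM against 18.4 and 24.5 FPKM. The groups of NRG1 did not overlap. Receptor tyrosine kinases, the receiving side, were lower in 10 of 16 members and higher in 2, with medians of -0.12 and -0.16 (-0.10 and -0.09 without the trend), and MET, the receptor of hepatocyte growth factor, had -0.49 and -0.31.

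Histone genes had 15 of 20 members higher and 2 lower in both pairs, with medians of 0.25 and 0.32 (0.17 and 0.22 without the trend, over 19 members). H2BC11 stood at 12.1 and 12.8 FPKM in PCDNA and 20.5 and 19.3 FPKM in OE-PURPL. H2AC18 and H2AC19, near-identical neighbours on chromosome 1 between which reads cannot be assigned with certainty, had ratios of 0.49 and 0.45, and of 0.54 and 0.43.

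Cytosolic ribosomal proteins and subunits of the respiratory chain were mostly higher, with larger medians in pair 2. Of 79 cytosolic ribosomal proteins 51 were higher and 0 lower in both pairs, with medians of 0.09 and 0.28 (0.04 and 0.19 without the trend), and RPS2 stood at 476 and 480 FPKM in PCDNA and 630.2 and 633 FPKM in OE-PURPL. Of 77 nuclear-encoded subunits of the respiratory chain 52 were higher and 2 lower, with medians of 0.11 and 0.31 (0.06 and 0.25 without the trend). ATP5ME, a subunit of ATP synthase, stood at 214 and 222 FPKM against 307 and 301 FPKM. The median transcripts of the ribosomal and the respiratory list had 1857 and 1426 bases. Among the 1798 described genes with the shortest transcripts (207 to 2101 bases), 65.3% were higher and 6.28% lower in both pairs. The medians of those genes were 0.15 and 0.24. Mitochondrial ribosomal proteins had 43 of 78 higher and 9 lower, and proteasome subunits 19 of 37 higher and 5 lower. In the list of mitochondrial import proteins and inner membrane proteases, where IMMP2L belongs, 16 of 32 were higher and 8 lower, so that its large negative ratio was not shared by the list (medians 0.12 and 0.08, and 0.04 and 0.03 without the trend).

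Condensin, cohesin and topoisomerase genes were lower in 21 of 24 members and higher in 3, with medians of -0.22 and -0.26. Without the trend the medians were -0.08 and -0.10, and 18 members were lower in both pairs. SMC5 stood at 7.09 and 8.59 FPKM in PCDNA and 4.76 and 5.41 FPKM in OE-PURPL, TOP2B, a type II topoisomerase, at 14.8 and 17.1 FPKM against 10.9 and 11.8 FPKM, and NCAPG, a condensin subunit, at 8.45 and 9.96 FPKM against 6.44 and 5.96 FPKM. NCAPH2, of the other condensin, was an exception with 13.1 and 11.6 FPKM in PCDNA and 17.6 and 15.6 FPKM in OE-PURPL. The median transcript of these 24 genes was 5505 bases long and had a GC content of 40.8%.

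Cytokinesis and spindle proteins were lower in 10 of 17 members and higher in 2, with medians of -0.21 and -0.21 (-0.15 and -0.14 without the trend). ANLN, the scaffold of the contractile ring, stood at 18.9 and 18.4 FPKM in PCDNA and 13.04 and 11.5 FPKM in OE-PURPL, and CKAP5, which polymerizes microtubules, at 22.4 and 21.5 FPKM against 16.9 and 15.7 FPKM. Kinetochore and centromere proteins were mixed, 9 of 25 higher and 7 lower, as were mitotic kinases, cyclins and anaphase regulators, 6 of 20 higher and 7 lower. CENPX, a protein of the centromere, had ratios of 0.44 and 0.60 and BUB1, a checkpoint kinase, -0.27 and -0.41. Kinesins had 5 of 16 higher and 7 lower.

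Nuclear pore proteins were lower in 18 of 27 members and higher in 3, with medians of -0.20 and -0.10 (-0.12 and -0.01 without the trend), and RANBP2, the cytoplasmic filament of the pore, stood at 14.1 and 17.1 FPKM in PCDNA and 10.2 and 10.9 FPKM in OE-PURPL. DNA damage kinases and repair proteins were lower in 14 of 22 members and higher in 3. ATM, the kinase that signals double-strand breaks to p53, stood at 15.7 and 15.1 FPKM in PCDNA and 9.75 and 10.4 FPKM in OE-PURPL, ratios of -0.63 and -0.49. The list medians of -0.25 and -0.09 became -0.07 and 0.01 without the trend, so the direction of pair 2 depended on it.

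Chromatin remodellers were lower in 15 of 25 members and higher in 1, and histone lysine methylases and demethylases lower in 19 of 38 and higher in 5. BPTF, a subunit of the NURF remodeller, had ratios of -0.56 and -0.43 and KMT5B -0.46 and -0.49. Medians were -0.09 and -0.20 for remodellers (-0.04 and -0.09 without the trend) and -0.15 and -0.10 for the methylation list (-0.09 and 0.02). Integrins, laminins and adhesion receptors were lower in 12 of 24 members and higher in 5, with medians of -0.19 and -0.03 (-0.09 and -0.00 without the trend). ITGA2, a collagen receptor, stood at 148 and 158 FPKM in PCDNA and 107 and 125 FPKM in OE-PURPL.

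Targets of p53, the factor that PURPL is known to act on, were divided. Of 28 members 10 were higher and 12 lower in both pairs, with medians of -0.05 and -0.04 (-0.03 and -0.08 without the trend), and 0 passed limma. MDM2, the ubiquitin ligase of p53, stood at 35.7 and 54.2 FPKM in PCDNA and 29.6 and 30.1 FPKM in OE-PURPL, ratios of -0.26 and -0.83, and the control of pair 2 was the highest of the 4 libraries. ZMAT3, an RNA-binding target, stood at 9.96 and 10.2 FPKM in PCDNA and 7.31 and 7.56 FPKM in OE-PURPL. TP53INP1 (-0.32 and -0.51) and EDA2R (-0.29 and -0.30) completed the members with the largest ratios. CDKN1A (p21), chosen here for its role and not for its ratio, stood at 403 and 406 FPKM in PCDNA and 482 and 438 FPKM in OE-PURPL, ratios of 0.26 and 0.11.

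MYBBP1A, a nucleolar protein reported to bind PURPL, stood at 22.7 and 21.4 FPKM in PCDNA and 24.2 and 25.9 FPKM in OE-PURPL. Among cell cycle inhibitors, cyclins and the RB family, 9 of 17 were higher and 5 lower, with medians of 0.10 and 0.14. Without the trend 4 were higher and 4 lower, and the medians were -0.04 and 0.01. CDKN2A, which encodes p16 and ARF, stood at 10.1 and 10.5 FPKM in PCDNA and 17.9 and 14.2 FPKM in OE-PURPL, and CDK6, the kinase that p16 inhibits, at 10.8 and 12.3 FPKM against 7.93 and 7.04 FPKM. Neither pair of groups overlapped, and neither gene passed limma (adjusted p = 0.324 for both).

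Splicing factors of the SR and hnRNP families had 14 of 33 members higher and 10 lower, and 20 higher and 3 lower without the trend, with SRSF2 at 108 and 109 FPKM in PCDNA and 152 FPKM in both OE-PURPL libraries. Their median over both pairs was below 0 (-0.10) with quantile normalization and no pairing. Zinc finger genes named ZNF had 50 of 157 higher and 56 lower, solute carriers 73 of 162 and 50, genes named TMEM 52 of 121 and 25, and Rab GTPases 13 of 38 and 12. Collagens, the main matrix product of fibroblasts, had 10 of 20 higher and 5 lower, with COL12A1 at -0.50 and -0.28. The list of matrix metalloproteinases, ADAMs and their inhibitors had 13 of 32 members higher and 6 lower. It also holds PLAUR, the urokinase receptor, which stood at 187 and 176 FPKM in PCDNA and 246 and 262 FPKM in OE-PURPL. Cullins and F-box proteins had 9 of 46 higher and 20 lower, tripartite motif ligases 11 of 31 and 10, lamins and nuclear envelope proteins 7 of 14 and 4, and clock genes 3 of 9 and 3.

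Over all 43 lists, 21 had medians above 0 in both pairs and 14 below 0 in both. Of these 35, 25 kept the sign of both medians without the trend. The pair medians of all 8974 genes were -0.00492 and 0.05.

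**Figure D5:**
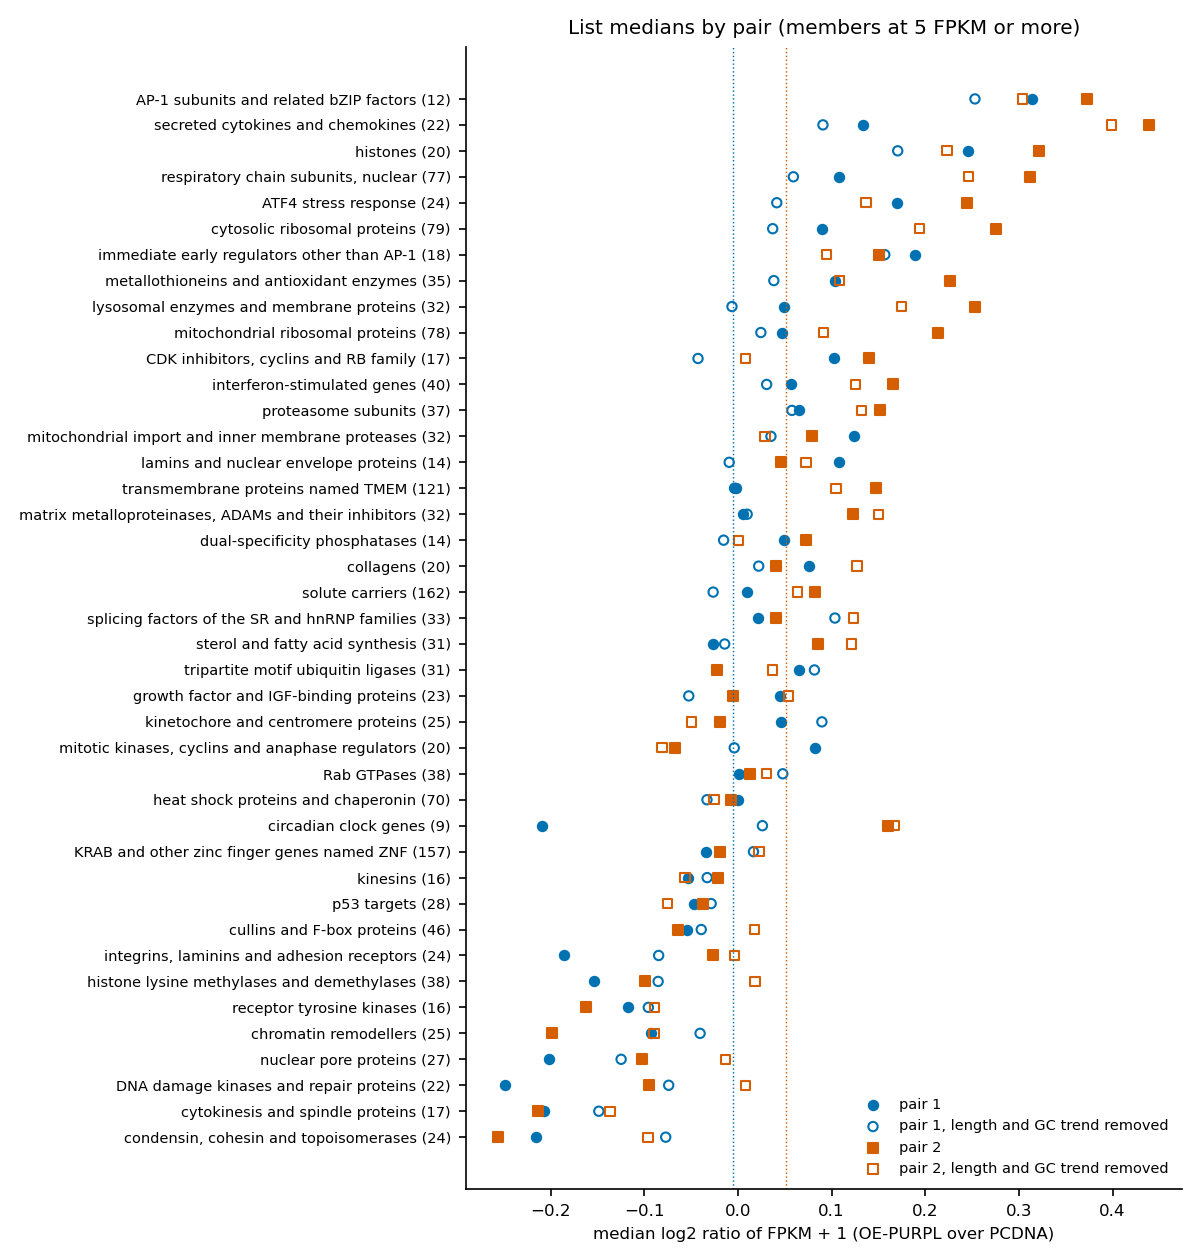
Median log2 ratio of the members at 5 FPKM or more (number in brackets) for each of 41 gene lists, in pair 1 (blue circles) and pair 2 (orange squares), filled as measured and open after removal of the trend on transcript length and GC content. Dotted lines give the medians of all described genes in each pair, and most open symbols lie nearer to those lines than the filled ones.

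Promoter windows were compared between the genes at 0.5 or more in both pairs and all described genes. A TATA box (TATAAA) was held by 9 of the 37 windows of higher genes (24.3%), by 3 of the 36 windows of lower genes (8.33%) and by 397 of 7363 windows of all described genes (5.39%). The cyclic AMP response element (TGACGTCA) was held by 2 of 37 (5.41%), 0 of 36 and 3.65%, and the AP-1 site (TGANTCA) by 1 of 37 (2.70%), 1 of 36 (2.78%) and 4.28%, in the same order. CCAAT boxes were held by 40.5% and 36.1% of the windows of higher and lower genes and 36.6% of all. The windows did not differ in base composition as the transcripts did, with a median GC content of 68.7% for higher genes, 68.2% for lower genes and 65.7% for all described genes. These are matches of letters and no test was run on them.

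By chromosome, the share of genes higher in both pairs was 67.6% on chromosome 19 (581 genes, 8.09% lower), whose transcripts had a median GC content of 59.5%, and 5 of the 20 highest genes lay there. It was 18.6% on chromosome 13 (140 genes, 47.1% lower), with a median GC content of 41.5%. On chromosome 5, which carries PURPL, 25.4% of 394 genes were higher and 41.6% lower, with a median GC content of 43.9%. Over all described genes these shares were 37.9% and 31.2%. The chromosomes nearest to chromosome 5 in GC content, 3 (44.5%) and 2 (44.6%), had 28.0% and 28.1% higher and 38.9% and 41.1% lower. Next came chromosomes 10 (44.8%) and 4 (42.7%), with 27.6% and 21.5% higher and 49.4% and 44.6% lower. Within 5 Mb of PURPL lie 11 protein-coding genes of the annotation. The cadherins CDH12, CDH10, CDH9 and CDH6 and the recombination gene PRDM9 stood at no more than 0.0612 FPKM in any of the 4 libraries. Of the others, PDZD2 (-0.53 and -0.22), MTMR12 (-0.44 and -0.02) and ZFR (-0.38 and -0.24) were lower in both pairs. DROSHA, the nuclease of microRNA maturation, C5orf22 and GOLPH3 had opposite directions in the pairs, and none of these 6 genes passed limma.

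The knockdown served as a comparison from other libraries with other controls. Of the 46 genes at 0.5 or more above PCDNA in both pairs, 15 were lower in both knockdown pairs (32.6%), against 38.2% of all described genes. Of the 42 genes at 0.5 or more below PCDNA, 6 were higher in both knockdown pairs (14.3%), against 14.7% of all. The shares of genes that went the opposite way after knockdown were thus near those of all genes. JUNB stood at 76.3 and 54.5 FPKM in ASO-NC and 84.7 and 52.6 FPKM in ASO-PURPL, and FOS at 3.81 and 3.31 FPKM against 3.80 and 2.11 FPKM.

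At the limits of the rule, CC2D2A entered with a mean of 5.01 FPKM and THAP8 was left out with 4.99 FPKM, and ARHGEF19 entered with 5.002 FPKM while ZNF121, with ratios of -0.65 and -0.69, was left out with 4.999 FPKM. The order by size placed PROSER2 (0.60) just before CLIC3 (0.60) and ARHGEF10 (-0.55) just before NRG1 (-0.54), so the ends of both sets of 20 are not sharp.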

How the data were processed

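RNA from 4 libraries of BJ cells (OE-PURPL and PCDNA, 2 each) was compared, with the 4 knockdown libraries used to share the estimate of spread. The deposited values are FPKM. No column names this unit, and it was inferred from Cufflinks, which is named with STAR and hg38 per the submitters' processing notes, without versions. Read numbers and use of strand are not given in the sources used here, so depth is unknown, and levels of overlapping genes, antisense genes and near-identical copies are uncertain. The authors' deposited table for pair 1 also holds a log2 fold change.

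Of 60635 rows per table, 1264 repeated a gene name, and for these the most highly expressed row was used. The 59370 genes joined were matched to GENCODE 29 (37747 by name and 568 more through a RefSeq synonym) for gene type, position, and length and GC content of the longest transcript. Ratios were log2 of FPKM plus 1 inside each pair. The 14977 genes that averaged 1 FPKM or more in the overexpression or in the knockdown libraries entered a fit in R 4.3.3 with limma 3.58.1 (functions lmFit and eBayes, with a trend, 2 residual and 3.34 prior degrees of freedom), with Benjamini-Hochberg adjustment over all genes tested and a threshold of 0.05. The fit was tested on simulated data with noise independent between genes and with large changes only. That test did not cover small changes or a trend on transcript length and GC content. The trend on transcript length and GC content was removed with natural splines of 4 degrees of freedom each.

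The pairing follows the deposited tables, since these may have been normalized separately. Deviations of same-numbered treated and control libraries correlated with r = 0.14 for overexpression and 0.49 for the knockdown. Whether replicates were grown as separate cultures is not in the labels, and the p-values rest on differences among these libraries that may be technical alone. The genes named are PURPL, every gene past limma, the 20 highest and 20 lowest by the smaller of both ratios, up to 4 members of each of 43 lists by the same order, and the neighbours of PURPL, with CDKN1A and a few others added after their values were seen. Some genes and lists that this rule names are not reported here. The members and lists were chosen with earlier results of these data known. Alternatives were other pseudocounts and filters, eBayes without a trend, the overexpression pairs alone, centring, removal of the length and GC trend, no pairing, and leaving out each pair.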

Additional observations from a re-analysis of the deposited data

How the results depend on the processing

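The count of 4 genes called higher was 3 with a pseudocount of 0.1, with a filter at 5 FPKM and with eBayes without a trend, and 4 with each pair centred. It was 2 with a pseudocount of 5 FPKM, 1 (PURPL) with the length and GC trend removed, where the clone-named genes have no annotated transcript to enter with, and 0 with the overexpression pairs alone. With no filter 3 other genes passed, and PURPL kept its change of 4.87 at a limma adjusted p of 0.492. With the overexpression pairs alone PURPL had 4.87 at a limma adjusted p of 0.365. With 1 pair left out, 0 to 1 genes were called and the change of PURPL ranged from 4.59 to 5.15, past the threshold in none of these fits. With no replicate block, after quantile normalization of the libraries, 5 genes were called higher and PURPL had 4.80 (limma adjusted p = 0.0019), so PURPL also passed without the pairing. The count called lower was 0 in every fit. At a minimum mean of 20 FPKM, 2154 described genes were higher and 978 lower in both pairs, and at 1 FPKM 4016 and 3928. The size of these counts follows the filter by construction. Their balance also changed with it, from 3402 higher and 2804 lower at 5 FPKM. The direction of all 40 named genes was the same in each alternative, but these genes were chosen for equal direction in both pairs. Only centring, removal of the length and GC trend and quantile normalization could have changed it. Of the 43 lists, the median over both pairs changed sign in 6 with the length and GC trend removed, in 7 without the pairing and with quantile normalization, in 4 without pair 1 and in 6 without pair 2, among them kinesins, clock genes, collagens and sterol synthesis. The causes of these changes were not tested. The SD of the ratios over the described genes was 0.28 and 0.29 in the pairs, and depth, which limits low genes, is unknown.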
